A study of Mus musculus with 15 samples.

Results

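MiR-204, miR-211 and miR-184 are small regulatory RNAs with known roles in pancreatic β cells, and 4 of the 584 miRNA assays on the TaqMan low density arrays of this study measured them or the opposite arm of the miR-204 hairpin. They were chosen by a rule on names, with earlier results of these data known. The assays mmu-miR-184, mmu-miR-204 and mmu-miR-211 lie among the 375 of card A, and rno-miR-204*, for the rat star strand, among the 209 of card B. Each of the 4 was measured in 1 well per sample. There were 15 samples, 3 replicates of each of 5 conditions: αTC1-6 without treatment for 24 h or 48 h, αTC1-6 given a cytokine mixture (50 IU/ml of IL-1β with IFN-γ and TNF-α, 1000 IU/ml each) for the same times, and βTC1 without treatment at 24 h. αTC1-6 is a mouse glucagonoma line and βTC1 a mouse insulinoma line, both from tumours driven by a viral oncogene and grown in culture, and treated βTC1 was not among the samples. The methods of the study describe the replicates as biologically independent. Insulin and glucagon mRNA were not measured on these cards, and the identity of the lines was not checked. The miRNAs given further on are linked to islets or mark other cells, and no verdict on identity was drawn from them.

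A miRNA pairs with messenger RNAs mainly through its seed, and a loaded Argonaute protein then represses them. MiR-204 is processed from an intron of Trpm3, is enriched in insulin-making cells and is known to repress MafA, a transcription factor of the insulin gene. MiR-211 is the miR-204 paralogue processed from Trpm1 and is best known from pigment cells. MiR-184 is not related to them in sequence, is abundant in β cells and is known to repress Ago2, through which it acts on β-cell growth in insulin resistance. Cytokines of the mixture used here are those released around islets in insulitis.

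The mature sequences are shown because the first pair share a seed, the part that selects targets, while the remaining pair do not. They are RefSeq mouse sequences (GRCm38.p6), written 5′ to 3′, with the seed (bases 2 to 8) in capitals. The assay names do not state a 5p or 3p arm, so the entry of each of the 4 was assigned by hand. For the rat star assay it was the mouse counterpart.
miR-204-5p: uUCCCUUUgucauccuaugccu
miR-211-5p: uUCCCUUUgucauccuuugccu
miR-204-3p: gCUGGGAAggcaaagggacgu
miR-184-3p: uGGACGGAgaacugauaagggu
MiR-204-5p and miR-211-5p are identical at 21 of 22 positions and differ by A17U, with miR-204-5p as the reference and positions counted from 1 at the 5′ end. The rno-miR-204* assay was designed for rat, and its own sequence was not analysed here. In GRCm38.p6, miR-204-5p lies at chr19:22750610-22750631 and miR-204-3p at chr19:22750649-22750669, both on the plus strand within Trpm3. MiR-211-5p lies at chr7:64205831-64205852 on the plus strand within Trpm1. MiR-184-3p lies at chr9:89802263-89802284 on the minus strand, within no other gene of the RefSeq table and between Ankrd34c and 4930524O08Rik. Of 1738 mature mouse entries, only miR-7670-3p also had the seed UCCCUUU, and it was not on the cards, so that miR-204 and miR-211 were each other's single measured seed mate. The seed of miR-184 was found in 0 other entries.

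The readout of a well is its threshold cycle (Ct), reached once PCR has brought the signal over a fixed level. ΔCt is the Ct of an assay less that of miR-26a, so that a lower ΔCt stands for more miRNA and 1 cycle for about 1 unit on the log2 scale. MiR-26a had a Ct between 16.97 and 18.98 in the 15 samples. Among the deposited tables, the normalized one gives ΔCt, with undetermined wells at a Ct of 40 and some blanks, and the non-normalized one gives Ct. The tables differ in a way that touches these assays. In each of the 9 samples of 24 h, 60 to 86 wells of card A were undetermined in the normalized table and had a Ct in the non-normalized one, against 0 or 1 such wells per sample at 48 h (6 samples). A Ct was present for 214 to 276 assays of card A at 24 h and for 304 to 337 at 48 h, and time and this difference cannot be told apart. The plant control ath-miR159a, a sequence that mouse cells lack, had a Ct in 18 wells between 4.57 and 33.9 (median 27.1), a range that contains the Ct of most wells described here. Its part in the results was not tested.

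MiR-204 had a Ct in 13 of 15 samples, from 25.93 to 29.997, with 1 undetermined and 1 blank well. Its ΔCt in βTC1 was 8.60, 7.19 and 8.49 in replicates 1 to 3. In untreated αTC1-6 at 24 h it was 10.01, 9.37 and 10.11. All 3 βTC1 samples thus lay at lower ΔCt than all 3 αTC1-6 samples, that is at more miR-204. Untreated αTC1-6 at 48 h gave 10.92 and 9.84 in replicates 2 and 3, the first well being blank. With cytokines, ΔCt was 9.80 and 10.94 at 24 h in replicates 1 and 3, with replicate 2 undetermined, and 11.51, 9.62 and 9.47 at 48 h. In order of the mean of wells with a Ct, the conditions ran from βTC1 (8.09 ± 0.782, SD, n = 3) through untreated αTC1-6 at 24 h (9.83 ± 0.400, n = 3), treated at 48 h (10.20 ± 1.14, n = 3) and treated at 24 h (10.37 ± 0.810, n = 2) to untreated at 48 h (10.38 ± 0.766, n = 2). The 4 αTC1-6 conditions overlapped each other throughout, and the single gap in this order was between βTC1 and the next condition.

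The rno-miR-204* assay, read on a separate card, also had a Ct in 13 of 15 samples, from 27.4 to 31.8. ΔCt was 9.44, 10.32 and 10.51 in βTC1. It was 10.29 and 14.12 in replicates 2 and 3 of untreated αTC1-6 at 24 h, with replicate 1 blank. The lower of these αTC1-6 values lay within the βTC1 range. At 48 h the untreated cells gave 12.19, 12.98 and an undetermined well, and the treated cells 11.56, 12.10 and 10.996. The treated cells of 24 h gave 10.25, 9.44 and 12.03, which overlapped βTC1. Mean ΔCt was lowest in βTC1 (10.09 ± 0.574, SD, n = 3) and highest in untreated αTC1-6 of 48 h (12.58 ± 0.555, n = 2, the undetermined well left out). Both arms of the hairpin had a Ct in 11 samples, in each of which the miR-204 well crossed first, with a Ct difference, miR-204 minus the star strand, of -4.004 to -0.0486 cycles (median -1.53). A Ct difference between assays also holds their unequal efficiency and is no ratio of levels.

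MiR-184 came up late. Its Ct was 27.96 to 34.95 in 14 samples, with 1 blank, and within a sample it lay above 68.2% to 97.5% of the card A assays with a Ct (median 90.2%). ΔCt in βTC1 was 9.58, 13.71 and 15.67, a spread of 3.11 (SD, n = 3) against a median of 0.717 over 228 card A assays measured in all 3 samples, of which 1.32% had a larger SD. Replicate 1 alone was low in ΔCt. The 3 untreated αTC1-6 of 24 h gave 15.97, 13.39 and 14.01, and the 2 of 48 h 14.81 and 13.9995. Treated αTC1-6 gave 14.25, 12.74 and 14.99 at 24 h and 14.46, 15.23 and 14.49 at 48 h. The condition means ran from 12.99 in βTC1 through 13.99 in treated αTC1-6 of 24 h, 14.40 in untreated αTC1-6 of 48 h and 14.46 of 24 h to 14.73 in treated αTC1-6 of 48 h, and every neighbouring pair overlapped.

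MiR-211 was the member with the fewest Ct values. In the normalized table all 9 samples of 24 h, βTC1 included, were undetermined. At 48 h the untreated αTC1-6 gave ΔCt 10.19, 3.94 and 6.63, and the treated cells 10.87 and 7.96 in replicates 1 and 3 with replicate 2 undetermined. The Ct values behind them were 29.17, 20.91 and 24.58 without cytokines and 29.35 and 25.40 with them. The untreated replicates spanned 8.26 cycles. In the untreated group the SD of ΔCt was 3.14 (n = 3), against a median of 0.581 over 274 card A assays. MiR-204 had a Ct in 4 of these 5 samples and crossed later than miR-211 in each, by 0.643 to 6.99 cycles. These samples were picked by miR-211 having a Ct. In treated replicate 2 of 48 h, miR-204 had a Ct of 27.33 and miR-211 none. In the non-normalized table miR-204 crossed first in βTC1 replicate 1 (26.98 against 33.52) and untreated αTC1-6 replicate 2 of 24 h (26.08 against 28.63). It crossed later in the other 24 h samples with a Ct for both. Such Ct differences are no ratio of levels. The assays target sequences that differ at 1 base, and how far each reads the other miRNA was not tested.

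**Figure D1:**
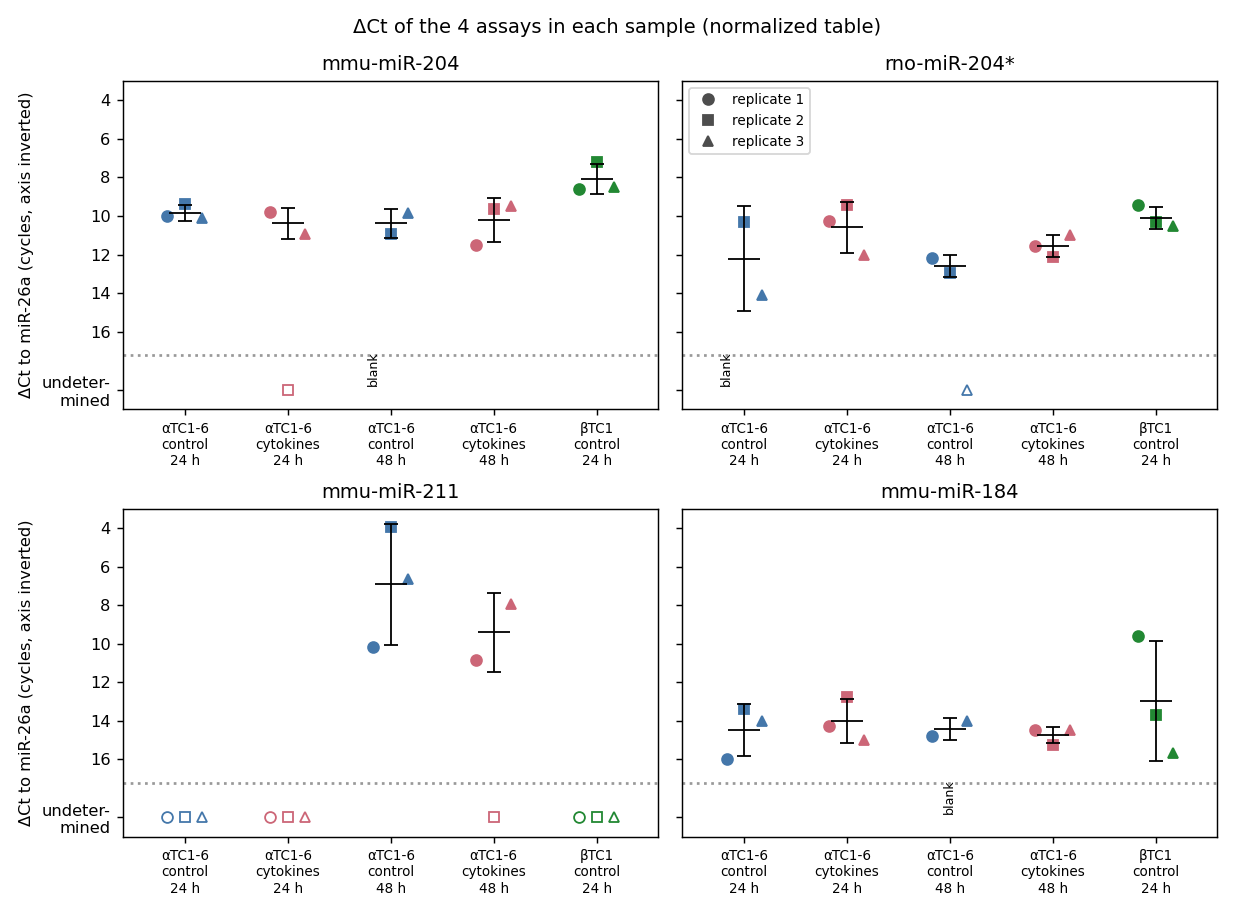
ΔCt to miR-26a in cycles (vertical axis, inverted so that more miRNA is higher) of the 4 assays in each of the 15 samples of the normalized table, by condition, with symbols for the replicate number, open symbols in the lower band for undetermined wells and the word blank for blank wells. Horizontal marks and bars are the mean and SD of wells with a Ct. MiR-204 in βTC1 sits at 7.19 to 8.60, apart from the untreated αTC1-6 of 24 h, and miR-211 has values at 48 h only.

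The non-normalized table changes the picture for miR-211 most. It holds a Ct for miR-211 in 11 of 15 samples, among them 6 of the 10 undetermined wells: 27.34 and 28.63 in untreated αTC1-6 of 24 h, 27.93 and 25.95 in treated αTC1-6 of 24 h, and 33.52 and 22.91 in βTC1, each in replicates 1 and 2. Replicate 3 of each 24 h group was undetermined in both tables. The 2 βTC1 wells were thus 10.6 cycles apart. For miR-204 all 15 samples have a Ct there, 26.94 in the undetermined well of treated αTC1-6 at 24 h and 30.05 in the blank well of untreated αTC1-6 at 48 h. Of the 13 wells of miR-204 with a Ct in both tables, 11 were equal within 0.01 cycle. The other 2 were replicate 2 of untreated αTC1-6 at 24 h (26.08 against 26.92 in the normalized table) and replicate 1 of treated αTC1-6 at 48 h (28.89 against 29.997). All wells of miR-184 and rno-miR-204* with a Ct in both tables were equal within that tolerance, and the undetermined well of rno-miR-204* was undetermined in both. Their blank wells have a Ct in the non-normalized table. It is 30.93 for miR-184 (untreated αTC1-6 at 48 h, replicate 2) and 28.32 for rno-miR-204* (untreated αTC1-6 at 24 h, replicate 1). The ΔCt of that rno-miR-204* well, 9.33, lay below all βTC1 values of the assay, the lowest of which was 9.44.

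**Figure D2:**
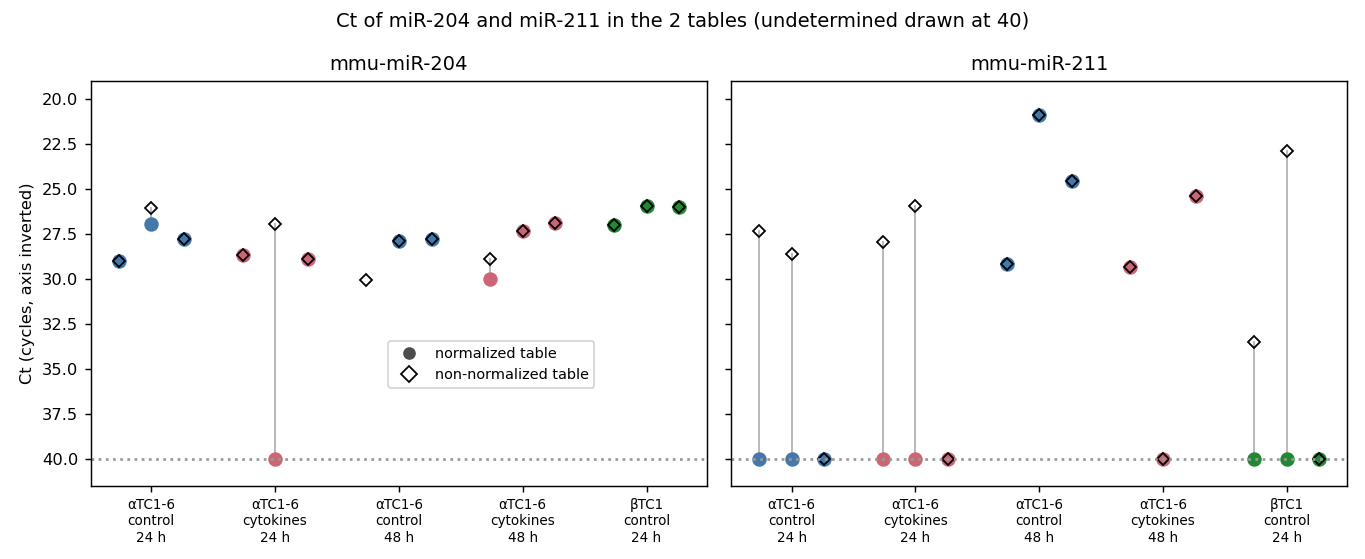
Ct in cycles (vertical axis, inverted) of miR-204 and miR-211 in each sample, replicates 1 to 3 from left to right within a condition. Filled circles are the normalized table, open diamonds the non-normalized table, grey lines join the values of 1 well, and undetermined wells are drawn at 40. For miR-211, 6 wells of the 24 h samples are undetermined in the normalized table and have a Ct in the non-normalized one.

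The first comparison asked how the lines differ at steady state, with untreated αTC1-6 set against untreated βTC1 at 24 h. MiR-204 was 3.34-fold lower in αTC1-6 by its mean ΔCt, a log2 difference (αTC1-6 minus βTC1) of -1.74 (SE 0.570, 95% interval -3.16 to -0.32), and missed the threshold of 0.05 (Limma test, Benjamini-Hochberg adjusted p = 0.0538). Its 3 samples of each line did not overlap, for which an exact two-sided permutation test gave p = 0.1, the smallest that 3 against 3 samples allow. Non-overlap was common here: it held for 45.8% of the 480 assays tested, and for 28.5% in this direction. The log2 difference was -2.11 for rno-miR-204* (SE 1.29, -5.51 to 1.29, limma adjusted p = 0.416), where 1 αTC1-6 well was blank. For miR-184 it was -1.47 (SE 1.69, -5.69 to 2.75, limma adjusted p = 0.555). So 0 of the 3 members tested passed, against 29.6% of all assays (142 of 480, limma, of which 47 had no Ct in 1 of the lines), while 182 of all and miR-204 alone of the members had an unadjusted p under 0.05. The members' median log2 difference was that of miR-204, and the median of all assays was -0.52. In bulk cultures a lower level in each cell and fewer cells that make a miRNA cannot be told apart.

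The call of miR-204 turned on the reference and on the filter. Against U6 and small nucleolar RNA in place of miR-26a it passed, at a log2 difference of -1.63 (limma adjusted p = 0.0246), and it also passed when only assays with a Ct in every sample were tested (adjusted p = 0.0485). It did not pass with median centring (limma adjusted p = 0.0617) or without normalization (adjusted p = 0.104). With the non-normalized table, as in the main setting, it did not pass: the ΔCt of αTC1-6 replicate 2 became 8.54, within the βTC1 range, and the log2 difference was -1.46 (adjusted p = 0.228). In 1 fit over all 15 samples, which gives each assay a single spread and so includes the undetermined well of the treated cells, the adjusted p was 0.610. The direction stayed the same under all 14 alternatives, with log2 differences from -2.29 to -1.44, and without each replicate in turn, from -1.99 to -1.29. None of the fits without a replicate passed (limma adjusted p from 0.0751 to 0.184). The miR-184 difference rested on βTC1 replicate 1, since without it the value was 0.23. For rno-miR-204* the value was -0.20 without αTC1-6 replicate 3 and -4.03 without replicate 2. With the non-normalized table, which fills its blank well, it was -1.15 (limma adjusted p = 0.708).

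**Figure D3:**
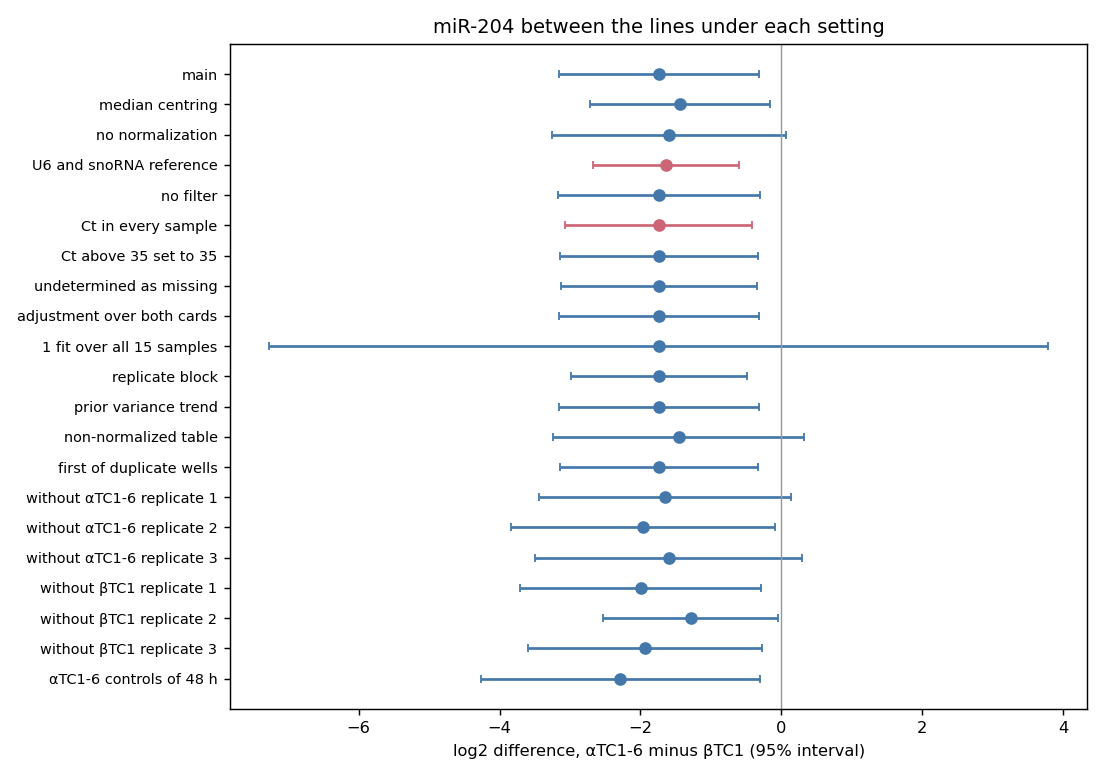
The log2 difference of miR-204, αTC1-6 minus βTC1 (horizontal axis, limma, bars are 95% intervals), under the main setting, each alternative and without each replicate in turn. Red marks settings with an adjusted p under 0.05. All values lie between -2.29 and -1.29, and 2 settings are red.

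MiR-211 could not be compared between the lines with the normalized table, since all 6 wells were undetermined. With the non-normalized table, in which 2 wells per line had a Ct and the other 2 stayed undetermined at 40, the log2 difference was 0.0073 with a 95% interval from -15.1 to 15.2 (limma adjusted p = 0.999), which leaves its level in either line relative to the other unknown. The ratio of miR-184 to miR-204 does not depend on miR-26a. The Ct difference, miR-184 minus miR-204 in the same sample, was 4.63 ± 1.16 in αTC1-6 and 4.89 ± 3.41 in βTC1 (SD, n = 3 each, exact two-sided permutation p = 0.9, the single such comparison for which both assays had a Ct in 3 samples per group).

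The second question was whether cytokines alter these miRNAs in αTC1-6. At 24 h none of the 3 members tested passed the limma threshold, and 0 had an unadjusted p under 0.05, beside 0.225% of all assays (1 of 445 passed, 20 at an unadjusted p under 0.05). MiR-184 gave a log2 difference, treated minus untreated, of 0.46 (SE 0.925, 95% interval -1.86 to 2.79, limma adjusted p = 0.963). MiR-204 gave -4.43 (SE 3.38, -12.9 to 4.08, adjusted p = 0.963), a value that 1 undetermined well, treated replicate 2, set: it was -0.54 with that well as missing and -0.35 with the non-normalized table. For rno-miR-204* the difference was 1.63 (SE 1.48, -2.33 to 5.60, adjusted p = 0.914), with 1 untreated well blank, and -0.28 without untreated replicate 3. With the non-normalized table, which fills that blank well, it was 0.68 (limma adjusted p = 0.963). The intervals of all 3 include changes of several-fold in either direction. MiR-211, undetermined in all 6 samples, was not tested. With the non-normalized table, where 1 well per group stayed undetermined at 40, its log2 difference was 0.89 (-13.1 to 14.8, adjusted p = 0.989).

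At 48 h all 4 members were tested and 0 passed, beside 0.562% of all assays (3 of 534), and 0 members but 60 of all assays had an unadjusted p under 0.05 by limma. The median log2 difference of all assays was -0.51, so that assays in general read lower in treated cells relative to miR-26a. MiR-204 differed by 0.18 between treated and untreated cells (SE 0.864, 95% interval -2.20 to 2.56, limma adjusted p = 0.934) and miR-184 by -0.33 (SE 0.491, -1.68 to 1.03, adjusted p = 0.855), with 1 untreated well blank for each. The miR-184 interval was the narrowest of the 4 and leaves room for changes of up to about 1.68 on the log2 scale. For miR-211 the difference was -6.79 (SE 4.21, -17.5 to 3.97, adjusted p = 0.721) with the undetermined treated well at 40 and -2.49 with it as missing. The 2 treated wells with a Ct lay at 10.87 and 7.96, the first of them beyond the untreated range. In all 3 same-numbered pairs the treated well was the later one (10.87 against 10.19, undetermined against 3.94, and 7.96 against 6.63), and with the pairs as a block the limma adjusted p was 0.460. What share of all assays had every pair in the same direction was not counted. For rno-miR-204* the 3 treated samples, at ΔCt 10.996 to 12.10, lay below the 3 untreated ones, at 12.19, 12.98 and undetermined (exact two-sided permutation p = 0.1, the smallest possible). Such non-overlap, with more miRNA after cytokines, was seen in 2.06% of the 534 assays, and in 19.3% in either direction. The gap was 0.0885 cycles, the log2 difference was 4.19 (SE 2.83, -3.06 to 11.4, adjusted p = 0.446) and it was 1.03 with the undetermined well as missing. Before miR-26a was subtracted the groups overlapped, with treated Ct from 28.44 to 30.05 and untreated Ct of 29.95, 31.17 and undetermined. In same-numbered pairs the treated well of rno-miR-204* was the earlier one in 3 of 3 pairs at 48 h, 1 of them against the undetermined well. At 24 h it was the earlier one in 2 of 2, with untreated replicate 1 blank. The non-normalized table gives that blank well a ΔCt of 9.33, earlier than the 10.25 of treated replicate 1. Block adjusted p-values from limma were 0.360 at 48 h and 0.509 at 24 h. The share of all assays with such pairs was not counted here either. For the opposite arm, miR-204, the treated and untreated ranges overlapped at 48 h, and the treated well was the earlier one in 2 of 2 pairs there and in 1 of 3 at 24 h.

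The cytokine effect at 48 h minus that at 24 h was tested for 3 members, of which 0 passed, beside 0.21% of all assays (1 of 477), and 0 had an unadjusted p under 0.05 by limma, against 19 of all. The log2 differences between the effects were -0.79 for miR-184 (SE 1.17, adjusted p = 0.992), 4.61 for miR-204 (SE 4.14, adjusted p = 0.992), which holds the undetermined well of 24 h, and 2.55 for rno-miR-204* (SE 3.598, adjusted p = 0.664), which holds that of 48 h.

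Between untreated αTC1-6 of 48 h and 24 h, the 3 members with a Ct in both groups did not pass by limma. The log2 difference, 48 h minus 24 h, was 0.06 for miR-184 (adjusted p = 0.987), -0.55 for miR-204 (adjusted p = 0.914) and -3.54 for rno-miR-204* (adjusted p = 0.999, with 1 undetermined well). MiR-211 entered the fit only through its 3 Ct values of 48 h, and its 3 wells of 24 h all stood at the set Ct of 40, so that it had to differ. Its fitted difference, 15.01 (limma adjusted p = 0.00285), is given as a description and supports no change. Of all assays 5.93% passed (29 of 489) and 5.52% were higher at 48 h (27 of 489), and 26 of the 29 likewise had no Ct at 24 h. With wells later than 35 set to 35 the difference of miR-211 was 10.01 (adjusted p = 0.0201). With the non-normalized table, where 2 of the 3 wells of 24 h had a Ct of 27.34 and 28.63, it was 6.998 (95% interval -3.52 to 17.5, adjusted p = 0.973). The remaining 24 h well stayed undetermined at 40 and is part of that value too. ΔCt of the 2 wells with a Ct, at 8.36 and 11.08 (mean 9.72), overlapped the 48 h range of 3.94 to 10.19 (mean 6.92). Without any 1 of the 48 h replicates miR-211 had a Ct in too few samples to be tested.

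**Figure D4:**
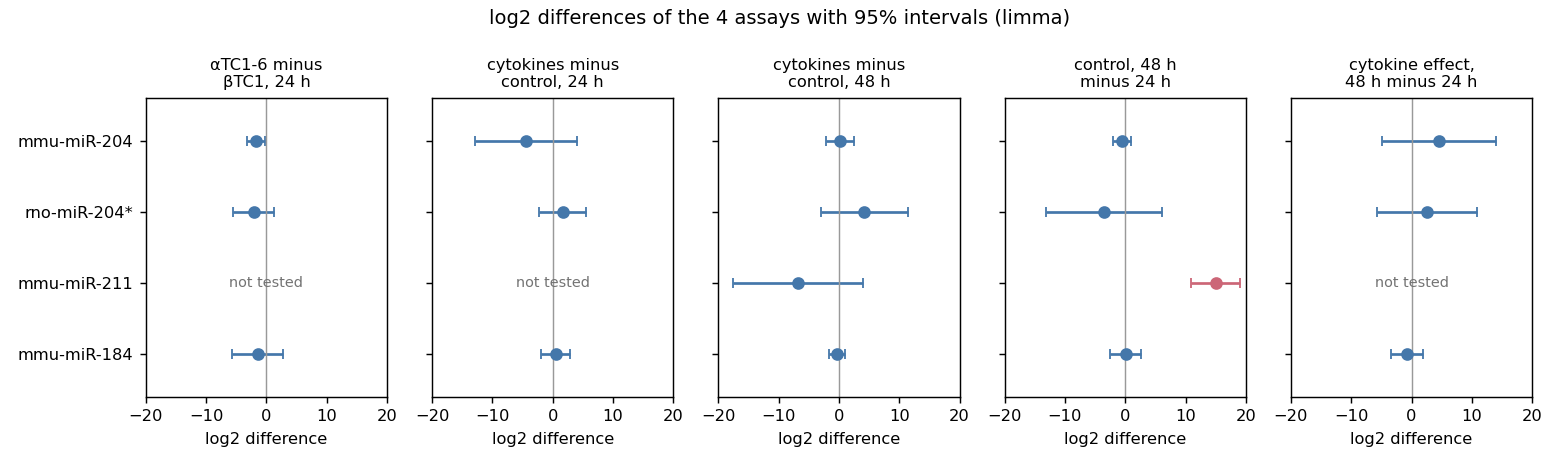
log2 differences of the 4 assays (horizontal axes) in the 5 comparisons, from limma on the normalized table, with 95% intervals, red where the adjusted p is under 0.05. MiR-211 at 48 h minus 24 h in untreated cells, at 15.01, is the single red point and is set by 3 undetermined wells at 40, and the widest intervals belong to fits that hold undetermined wells at 40.

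The assays whose ΔCt followed each member most closely over the samples were listed as a description, with all samples on the same cards and reference. For miR-184 they were miR-101a* (Pearson's r 0.894), miR-496 (0.849) and miR-653 (0.741), over 14 samples and 400 assays. The miR-184 ΔCt of βTC1 replicate 1, 9.58, stood apart from its other values, 12.74 to 15.97, and r without that sample was not computed. For miR-204 they were let-7b* (0.872), rno-miR-333 (0.787) and miR-135b (0.741) over 14 samples. This ranking held the undetermined well at 40, and over the 13 samples with a Ct in both assays it became miR-137 (0.852), miR-32 (0.844) and miR-338-3p (0.839), a change of all 3. For rno-miR-204* they were miR-483* (0.826), miR-145 (0.656) and miR-449a (0.609), and miR-98 (0.757), miR-202-3p (0.752) and miR-181a (0.751) over samples with a Ct in both. The samples fall into 2 lines and 2 time points, so that these values mix differences between conditions with those within them. Between the arms of the miR-204 hairpin r was 0.593 over the 11 samples with a Ct in both, and -0.136 over 13 samples when the 2 with an undetermined well at 40 were kept. MiR-211, with 5 Ct values, was not ranked.

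Among other miRNAs linked to islets, a list of 31 names of which 27 assays were on the cards, 4 of 25 tested were higher and 2 lower in αTC1-6 than in βTC1, and 19 did not pass (limma). That is 24%, beside 29.6% of all assays, with a median log2 difference of -0.01 beside -0.52. Higher in αTC1-6 were miR-130a, miR-29c and the kin miR-29a and miR-29b, which are known to repress monocarboxylate transporter 1 in β cells. MiR-130a rose above βTC1 by 2.71 on the log2 scale (SE 0.486, adjusted p = 0.00601), miR-29a by 2.29 (SE 0.538, adjusted p = 0.0173) and miR-29b by 2.10 (SE 0.630, adjusted p = 0.0395). Lower were miR-96, a regulator of exocytosis in β cells, at -2.37 (SE 0.705, adjusted p = 0.0391), and miR-200b, an epithelial miRNA, at -13.4 (SE 1.53, adjusted p = 0.000810). The miR-200b value, like those of miR-211, rests on 3 undetermined αTC1-6 wells that have a Ct of 28.95, 26.38 and 29.95 in the non-normalized table, where their ΔCt of 9.97, 8.83 and 12.27 overlapped the 8.58, 5.54 and 11.43 of βTC1. After cytokines 0 of 24 tested at 24 h and 0 of 27 at 48 h passed by limma, and 2 of 26 were called higher in untreated cells at 48 h than at 24 h, beside 5.52% of all assays. These were miR-200a and miR-429, whose 3 wells of 24 h were all undetermined, as for miR-211.

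Of miRNAs that mark other cells, the 3 acinar assays (miR-216a, miR-216b and miR-217) had a Ct in every βTC1 sample, the lowest 21.6, and, in the normalized table, in 0 of the αTC1-6 samples of 24 h, so that a fitted difference would be set by the Ct of 40. Of these 18 αTC1-6 wells, the non-normalized table gives 5 a Ct, from 18.1 to 31.9. At 48 h the normalized table gives a Ct for 1 acinar assay in each untreated αTC1-6 sample (lowest 30.2). In the treated samples of 48 h it gives one for 0 to 2 (lowest 20.9). Of the 4 blood cell assays 2 to 4 had a Ct in each sample, the lowest between 28.6 and 31.9 by condition. Of the 5 muscle and liver assays 1 to 5 did, the lowest between 26.1 and 29.4. Between the lines, 1 of 3 blood cell assays tested passed as lower in αTC1-6, miR-142-3p (log2 difference -2.96, limma adjusted p = 0.0477), and 1 of 3 muscle and liver assays, miR-133a (-5.83, adjusted p = 0.0372, with 1 undetermined αTC1-6 well). MiR-204 was lower in αTC1-6 in the same contrast without passing, and the part of these markers in its difference was not tested.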

How the data were processed

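Total RNA of 15 samples was reverse transcribed, preamplified and read on TaqMan rodent cards A and B. The normalized ΔCt values deposited by the authors are on a log2 scale and relative to miR-26a, and the non-normalized Ct values deposited by the authors (unit cycles) were used for comparison. A further deposited table holds the authors' fold changes and was not used. The study's methods name Statminer and DataAssist software and several reference genes, whereas ΔCt of miR-26a is 0 in all 15 samples. The settings are not given in the sources used here. Ct was recovered by adding the Ct of miR-26a, undetermined wells were set to 40 and blanks left out.

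Limma 3.58.1 (R 4.3.3) was fitted to the negative ΔCt of the samples compared, over all assays for which wells with a Ct under 40 were not outnumbered by those without, with Benjamini-Hochberg adjustment within each card at 0.05. Exact permutation tests used scipy 1.17.1 in Python 3.11.15. On simulated steady state data of 326 assays the test called 2.54% of unchanged assays, 21% of those changed by a log2 of 1 and 74.2% of those changed by 2. Over 10 draws the simulation held 1260 unchanged assays and 500 at each log2 size of 1, 2, 4 and 8. Most simulated assays were thus changed, and none was undetermined. In the real comparison 29.6% of assays were called and many wells stood at 40, so these rates need not hold for the members. The precision is limited by 3 samples per group and 1 well per assay.

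The alternatives were a block for the replicate number, median centring, no normalization, U6 and small nucleolar RNA as reference, other filters, a cap at Ct 35, dropping undetermined wells, adjusting over both cards together, a joint fit of the 15 samples, a prior variance trend, the non-normalized table, the first of duplicate wells, the 48 h controls and each replicate left out. Likeness over samples with a Ct in both assays or both miR-204 arms was added after seeing the data. The members, the lists and the settings were chosen with earlier results of these data known. The text names all members, their seed mates, the 3 assays most like each member with a Ct in 12 or more samples, and up to 3 islet miRNAs per direction. MiR-29c, miR-200a, miR-429, miR-142-3p and miR-133a were named beyond that rule, after their values were seen. Same-numbered treated and untreated αTC1-6 deviated together from their group means, with correlations of 0.276 to 0.476 at 24 h and 0.259 to 0.443 at 48 h. Different-numbered ones gave -0.351 to -0.0876 and -0.326 to 0.00256, though deviations within a group of 3 offset each other. The numbers were read as pairs for this reason, but the main fits and permutation tests left the pairs out. For same-numbered samples the correlations were 0.0642 to 0.0945 between the lines and -0.0447 to 0.238 between the 2 times.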

Additional observations from a re-analysis of the deposited data

How the results depend on the processing

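Over the members' log2 differences, 198 of 209 values under the alternatives kept their direction and side of the threshold, 2 passed it, 1 lost it and 8 changed sign, and of 117 values without a replicate 11 changed sign. None of the 8 or the 11 was past the threshold before or after. The causes were not tested. For miR-204 between the lines, -1.63 against U6 and small nucleolar RNA and -1.74 with a Ct in every sample passed, so that 1 member was called under each. Using αTC1-6 controls of 48 h against βTC1 also called 1 member, miR-211, which entered only through its 48 h wells against 3 βTC1 wells at 40 and had to differ. For miR-211 at 48 h minus 24 h in untreated cells, 6.998 with the non-normalized table did not pass, so that 0 members were called there. The count was also 0 with a Ct in every sample and with undetermined wells as missing, where miR-211 was not tested, and 0 to 1 without a replicate, the 0 again where it was not tested. Sign changes at 48 h of cytokines were 0.28 (median centring), 0.26 (no normalization) and 0.43 (U6 and small nucleolar RNA) for miR-184 and -0.24 (no normalization) for miR-204. Without normalization the untreated 48 h minus 24 h values were -0.33 for miR-184 and 0.063 for miR-204. Between the cytokine effects miR-184 was 0.0094 with U6 and small nucleolar RNA, and rno-miR-204* -0.60 with undetermined wells as missing. The Ct difference of miR-184 and miR-204 between the lines was 0.014 with the non-normalized table and -2.22 to 0.88 without a replicate.

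Without each replicate, miR-184 ranged from -2.82 to 0.23 between the lines, from -0.29 to 1.00 and from -0.73 to 0.077 after cytokines at 24 h and 48 h, and from -0.70 to 0.59 between the times. MiR-204 ranged from -0.36 to 0.84 after 48 h of cytokines, and rno-miR-204* from -0.28 to 3.55 after 24 h and from -0.60 to 4.47 between the effects.

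With the replicate number as a block, no member's call changed. The block gave miR-204 an adjusted p of 0.0502 between the lines and miR-211 0.0380 between the times, and the treated minus untreated values were 0.46, -4.43 and 1.47 at 24 h and -0.08, 0.84, -6.79 and 4.19 at 48 h, for miR-184, miR-204, miR-211 (48 h only) and rno-miR-204*. Over all assays, the count between the lines was 81 with a Ct in every sample and 93 with undetermined wells as missing, against 142. It was 94 to 110 without a replicate. Between the times it was 1, 2 and 2 with a Ct in every sample, undetermined wells as missing and the non-normalized table, against 29, and 0 without any 1 of the 48 h replicates. The counts lay between 0 and 2 after 24 h of cytokines, 0 and 5 after 48 h and 0 and 4 between the effects. Undetermined wells and the late Ct of miR-184 limit what can be seen here.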
